A study of Mus musculus with 18 samples.

Results

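The 10 genes described here, Ppargc1a, Ppargc1b, Ppara, Ppard, Pparg, Esrra, Esrrb, Esrrg, Nrf1 and Tfam, encode regulators of mitochondrial and fatty acid metabolism genes. They were chosen by name as a family, with earlier results of these data known, and are 10 of the 49315 genes in the count tables. All 10 passed the filter on low counts, as did 15778 genes in all. Messenger RNA was counted in the mid wall of the left ventricle of male mice on the 129SVE background, labelled WT or KO. KO is the label for mice that lack MLP, the muscle LIM protein encoded by Csrp3, a component of the cardiomyocyte Z-disc; such mice develop dilated cardiomyopathy. Hearts were taken at 3, 6 and 10 weeks of age, with 3 libraries in each of the 6 groups and no treatment, and the question was how expression changed with age as the disease progressed. No label says that the libraries of a group came from separate animals, so p-values measure the spread between these libraries only.

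PGC-1α (Ppargc1a) and PGC-1β (Ppargc1b) are coactivators: they bind no DNA themselves and are brought to genes by transcription factors. Among their partners are the peroxisome proliferator-activated receptors (PPARs), lipid-sensing nuclear receptors that pair with retinoid X receptors and control fatty acid uptake and oxidation, and the oestrogen-related receptors (ERRs), orphan nuclear receptors that control the citrate cycle, the respiratory chain and ATP synthesis. NRF1 is a further partner, which acts on nuclear genes for respiratory chain subunits and on Tfam, whose protein enters mitochondria to package and transcribe mitochondrial DNA. The heart depends on this network for ATP made from fatty acids.

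Library totals ran from 14980968 to 23001047 counts. CPM means counts in proportion to library size after TMM scaling; levels are compared between genes only per kilobase of annotated exon. Changes are log2 fold changes from edgeR's quasi-likelihood test, with the standard error (SE) implied by its F statistic, and a gene was called where p, adjusted by Benjamini-Hochberg over the 15778 genes, was under 0.05. Csrp3 was not lower in the libraries labelled KO: it lay between 951 and 1486 CPM in WT and between 1134 and 3416 CPM in KO, and at each age every KO library was above every WT library. It was called higher in KO at 10 weeks (2.45-fold, log2 fold change 1.29, SE 0.30, edgeR adjusted p = 0.0041, in 6 of 6 fits without 1 library). At 3 and 6 weeks the log2 fold changes of 0.80 and 0.57 were not called (adjusted p = 0.081 and 0.19). With no filter on low counts both passed (8.7e-10 and 3.1e-05), as did the value of 3 weeks without KO library 1 (0.026) and that of 6 weeks with only the 6-week groups in the fit (0.0042). Counts over the whole gene cannot show whether part of it is missing, so Csrp3 did not check the labels; WT and KO below mean libraries so labelled. In 3 KO libraries the atrial light chain gene Myl4 was above 50 CPM: 118 CPM in library 3 at 3 weeks, 436 CPM in library 3 at 6 weeks and 1145 CPM in library 1 at 10 weeks, against at most 23.2 CPM in the other 15. Calls of members that changed without these 3 libraries are given both ways. All 8 cardiomyocyte markers were detected in every library, and they summed to 98400 to 101100 CPM in KO against 71240 to 84790 CPM in WT at 3 weeks, with 3 of 8 called higher and 1 lower. At 6 weeks the sums overlapped, with 1 of 8 called higher and 3 lower. At 10 weeks they were 101200 to 117000 CPM in KO and 85040 to 93750 CPM in WT, with 1 of 8 called higher, Actc1, and 1 lower, Tnni3. Actc1 alone ranged from 22040 to 30700 CPM in KO and from 12200 to 16730 CPM in WT at 10 weeks. The part of the difference in these sums in the results below was not tested. In whole tissue, fewer cells of a type and less RNA per cell cannot be told apart.

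In KO hearts of 3 weeks, 4 of the 10 regulators were called higher than in WT, where 8.65% of all genes tested were, and 1 was called lower, where 6.68% were. The 4 were both PGC-1 coactivators, Ppara and Ppard, and the lower one was Tfam. At 6 weeks none was called higher (11.0% of all genes) and 4 were called lower (12.8% of all genes): Ppargc1a, Pparg, Esrra and Tfam. At 10 weeks 1 was called higher, Esrrg (14.6% of all genes), and 1 lower, Esrra (14.7% of all genes), which is near the background of that comparison. The median log2 fold change of the 10 was 0.30, -0.14 and -0.28 at 3, 6 and 10 weeks, beside 0.00, 0.00 and -0.03 over all genes tested. The KO and WT values of every called member were separate at that age. So were those of some members not called: Ppard, Esrrb and Nrf1 at 6 weeks (adjusted p = 0.56, 0.67 and 0.51) and Ppargc1b at 10 weeks (0.062). The share of all genes with separate values was not counted. At 3 weeks the number called fell from 5 to 2 without WT library 1, WT library 2 or KO library 1, and to 3 without KO library 2. At 6 weeks it fell from 4 to 2 without WT library 2, KO library 2 or KO library 3, and at 10 weeks it was 1 without WT library 2 or 3 and 4 without KO library 3.

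**Figure D1:**
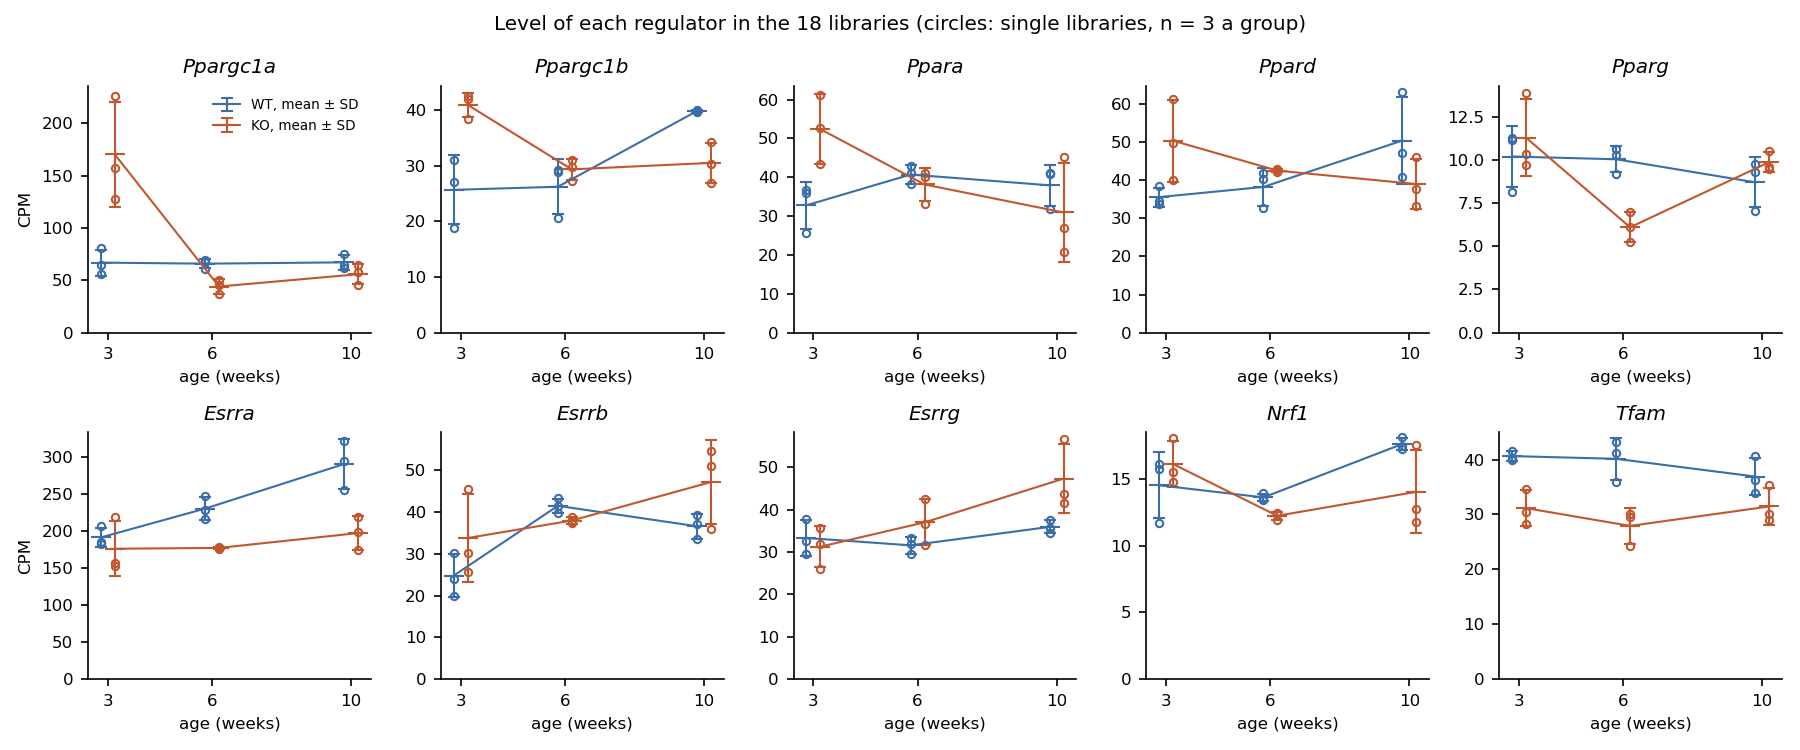
Level of each of the 10 regulators in CPM (y axis, from 0, scale differs by panel) at 3, 6 and 10 weeks (x axis, to scale) in WT (blue) and KO (orange). Circles are single libraries, n = 3 a group, and bars are mean ± SD. The 3 KO libraries of 3 weeks stand at 128 to 226 CPM for Ppargc1a, and every other library lies between 36.5 and 80.5 CPM.

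**Figure D2:**
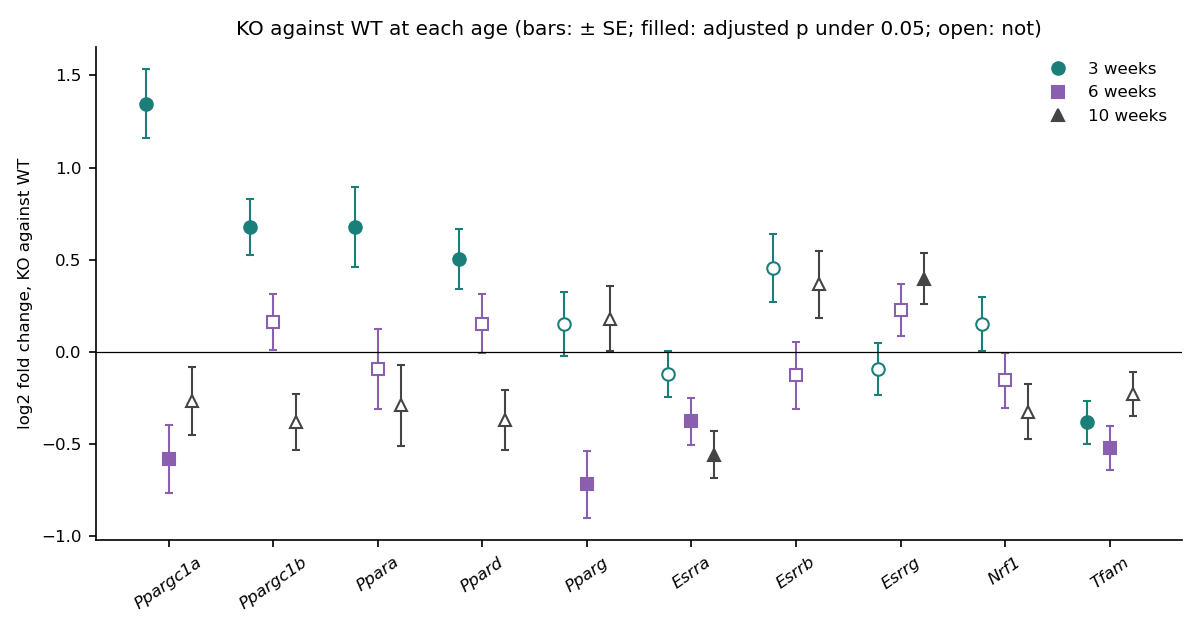
Log2 fold change, KO against WT (y axis), of the 10 regulators at 3 weeks (circles), 6 weeks (squares) and 10 weeks (triangles). Bars are ± SE from the edgeR fit and filled symbols have an adjusted p under 0.05: 5 members at 3 weeks, 4 at 6 weeks and 2 at 10 weeks.

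Ppargc1a, the coactivator induced in heart and muscle by energy demand, fasting and cold, had the steepest course. In WT it stood at 64.4, 80.5 and 55.9 CPM at 3 weeks, 69.5, 67.4 and 60.8 CPM at 6 weeks and 75.4, 64.2 and 61.9 CPM at 10 weeks. In KO it stood at 157, 226 and 128 CPM at 3 weeks, 50.3, 45.3 and 36.5 CPM at 6 weeks and 64.2, 57.7 and 45.5 CPM at 10 weeks. Every KO library of 3 weeks was above every other library, and every KO library of 6 weeks was below every WT library. The level in KO was 2.54-fold that in WT at 3 weeks, a log2 fold change of 1.35 (SE 0.19, edgeR adjusted p = 6.5e-05), and at 6 weeks it was lower, with a log2 fold change of -0.58 (SE 0.19, adjusted p = 0.028). At 10 weeks KO and WT overlapped and the log2 fold change was -0.27 (SE 0.19, adjusted p = 0.31).

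The 3-week call for Ppargc1a held in all 6 fits that left out 1 library, with log2 fold changes from 1.09 to 1.52. The 6-week call held in 2 of 6, without WT library 3 or KO library 1. It was lost without WT library 1, WT library 2, KO library 2 or KO library 3, with adjusted p of 0.098, 0.071, 0.065 and 0.13. Without the 3 libraries high in Myl4 the 6-week log2 fold change was -0.46 (adjusted p = 0.061). The genotype effect itself was lower at 6 than at 3 weeks by a log2 difference of -1.93 (SE 0.26, adjusted p = 0.0012), and at 10 than at 3 weeks by -1.62 (SE 0.26, adjusted p = 0.001). Both passed in 12 of 12 fits without 1 library, and they share the 6 libraries of 3 weeks. Of all genes tested, 1.59% were called in the first of these differences, where Ppargc1a was the single member called, and 5.76% in the second, where 3 of 10 members were called.

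Within KO, Ppargc1a fell by 1.95 on the log2 scale from 3 to 6 weeks (SE 0.19, adjusted p = 4.7e-06), one of 3 members called in that comparison, where 11.6% of all genes were. Within WT its log2 change was -0.02 from 3 to 6 weeks (SE 0.18) and 0.03 from 6 to 10 weeks (SE 0.18), and neither was called. Ppargc1a lies on the minus strand of chromosome 5 (GRCm38 chr5:51454250-51567726). The 249 bases ahead of its annotated start, outside all exons of GENCODE M21, are shown because the gene had the largest change of the 10. They are from RefSeq on GRCm38.p6, chr5:51567727-51567975, minus strand, 5′ to 3′, all in lower case since none of the 5 motifs described with the other promoters matched.
Ppargc1a: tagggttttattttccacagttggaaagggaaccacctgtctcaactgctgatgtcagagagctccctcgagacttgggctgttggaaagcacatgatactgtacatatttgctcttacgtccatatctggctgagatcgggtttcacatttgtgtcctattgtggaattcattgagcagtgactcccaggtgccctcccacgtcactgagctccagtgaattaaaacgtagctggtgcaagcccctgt

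Ppargc1b, the second coactivator of the family, on the minus strand of chromosome 18 (chr18:61298136-61400431), also began higher in KO. It stood at 18.8, 27.1 and 31.0 CPM in WT and 38.5, 42.5 and 41.9 CPM in KO at 3 weeks, a log2 fold change of 0.68 (SE 0.15, adjusted p = 0.0041). Each KO library of that age was above each WT library, and the call held in 6 of 6 fits without 1 library. At 6 weeks the values overlapped, with 20.6, 29.2 and 28.9 CPM in WT and 27.2, 30.9 and 29.8 CPM in KO. At 10 weeks the order was turned, with 39.6, 39.8 and 40.0 CPM in WT above 26.9, 34.2 and 30.3 CPM in KO, but the log2 fold change of -0.38 (SE 0.15) had an adjusted p of 0.062 and was not called. That difference did pass in 3 alternatives, with no filter on low counts (adjusted p = 0.042), with only the groups compared (0.043) and with the replicate number as a block (0.021). It passed in 0 of 6 fits without 1 library, and the adjusted p was 0.26 without KO library 1. Without the libraries high in Myl4 the log2 fold change was -0.28 (adjusted p = 0.26).

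For Ppargc1b the genotype effect was lower at 10 than at 3 weeks by -1.06 (SE 0.21, adjusted p = 0.0049), in 12 of 12 fits without 1 library. WT rose by 0.60 on the log2 scale from 6 to 10 weeks (SE 0.15, adjusted p = 0.016), the single member called in a comparison with 8.77% of all genes called. That call was lost without WT library 1 of 6 weeks (adjusted p = 0.12). KO fell by 0.48 from 3 to 6 weeks (SE 0.15, adjusted p = 0.042). This fall passed in 1 of 6 fits, without KO library 1 of 3 weeks. It was lost without library 2 or 3 of 3 weeks (adjusted p = 0.098 and 0.11) and without library 1, 2 or 3 of 6 weeks (0.16, 0.078 and 0.096). Without the libraries high in Myl4 the adjusted p was also 0.16.

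Ppara encodes PPARα, the PPAR that drives fatty acid oxidation genes in the heart (plus strand, chr15:85734983-85802819). At 3 weeks it stood at 25.7, 36.7 and 35.9 CPM in WT and 61.2, 52.7 and 43.3 CPM in KO, a log2 fold change of 0.68 (SE 0.22, adjusted p = 0.043). The 3 KO values were above the 3 WT values, yet the call rested on most single libraries: it passed in 1 of 6 fits, without KO library 3. Without WT library 1, 2 or 3 the adjusted p was 0.20, 0.066 and 0.060, and without KO library 1 or 2 it was 0.16 and 0.099. With the replicate number as a block it was 0.061, and without the libraries high in Myl4 it was 0.0059. At 6 weeks WT (38.1, 42.9 and 41.0 CPM) and KO (41.2, 40.0 and 33.2 CPM) overlapped. At 10 weeks the KO libraries were spread from 20.7 to 45.2 CPM, around 41.1, 40.7 and 31.9 CPM in WT. The log2 fold change at 10 weeks was -0.29 (SE 0.22, adjusted p = 0.35). Without KO library 3, the highest, the value was -0.65 (adjusted p = 0.0076), and without KO library 1 it was -0.04 (0.91). Without the libraries high in Myl4 it was -0.05 (0.87). The change of the Ppara genotype effect from 3 to 10 weeks, -0.97 (SE 0.31), had an adjusted p of 0.075, and 0.00095 without KO library 3 of 10 weeks. That was the only one of 12 fits without 1 library to pass, and without KO library 2 of 10 weeks the adjusted p was 0.20. It was 0.070 without the libraries high in Myl4, 4.2e-05 with no filter on low counts and 0.031 with DESeq2.

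Ppard encodes PPARδ, a widely expressed receptor that shares many targets with PPARα (plus strand, chr17:28232754-28301469 in the count tables, which differs from GENCODE M21). At 3 weeks it stood at 33.7, 34.7 and 38.4 CPM in WT and 61.5, 49.8 and 40.0 CPM in KO, a log2 fold change of 0.50 (SE 0.16, adjusted p = 0.039). All KO values were higher, but the call passed in 2 of 6 fits, without WT library 3 or KO library 3. Without WT library 1 or 2 the adjusted p was 0.14 and 0.11. Without KO library 1 it was 0.20, with a log2 fold change of 0.34, and without KO library 2 it was 0.078. With only the 3-week groups in the fit it was 0.058. At 6 weeks WT stood at 32.7, 41.8 and 40.3 CPM and KO at 42.6, 42.1 and 43.0 CPM, a log2 fold change of 0.15 (SE 0.16, adjusted p = 0.56). At 10 weeks WT stood at 40.9, 47.3 and 63.3 CPM and KO at 33.3, 37.7 and 46.1 CPM, which overlapped. The log2 fold change there was -0.37 (SE 0.16, adjusted p = 0.093), and the adjusted p was 0.036 without WT library 1 and 0.038 without KO library 3. Without WT library 3 the value was -0.16 (adjusted p = 0.53).

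The genotype effect on Ppard was lower at 10 than at 3 weeks by -0.87 (SE 0.23, adjusted p = 0.027). It passed in 6 of 12 fits. It was lost without WT library 1 or 2 of 3 weeks (adjusted p = 0.072 and 0.068), WT library 3 of 10 weeks (0.10), KO library 1 of 3 weeks (0.075) or KO library 1 or 2 of 10 weeks (0.081 and 0.086). With only the 4 groups compared it was 0.081.

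Pparg encodes PPARγ, best known as the regulator of fat cell formation and also active in endothelium and macrophages (plus strand, chr6:115360951-115490399). Its low point was KO at 6 weeks, at 6.97, 5.22 and 6.09 CPM, below the 10.6, 10.3 and 9.18 CPM of WT at that age and below every other library. The log2 fold change at 6 weeks was -0.72 (SE 0.18, adjusted p = 0.0052), in 6 of 6 fits without 1 library. At 3 weeks WT (8.16, 11.1 and 11.3 CPM) and KO (9.72, 10.3 and 13.8 CPM) overlapped, as did WT (9.27, 7.06 and 9.76 CPM) and KO (10.5, 9.61 and 9.46 CPM) at 10 weeks. Within KO it fell by 0.89 from 3 to 6 weeks (SE 0.18, adjusted p = 0.0024), in 6 of 6 fits. It then rose by 0.70 from 6 to 10 weeks (SE 0.18, adjusted p = 0.015), the single member called in a comparison with 12.7% of all genes called. That rise was lost without KO library 2 of 6 weeks (adjusted p = 0.090) and without the libraries high in Myl4 (0.058).

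The change of the Pparg genotype effect from 6 to 10 weeks was 0.90 (SE 0.25, adjusted p = 0.040), again the single member called, where 5.75% of all genes were. It passed in 3 of 12 fits, without WT library 3 of 10 weeks, KO library 1 of 6 weeks or KO library 3 of 10 weeks. Without WT library 1, 2 or 3 of 6 weeks the adjusted p was 0.093, 0.066 and 0.056, and without WT library 1 or 2 of 10 weeks it was 0.063 and 0.11. Without KO library 2 or 3 of 6 weeks it was 0.12 and 0.070, without KO library 1 or 2 of 10 weeks 0.055 and 0.068, and without the libraries high in Myl4 0.070. All 4 of these Pparg results use the same 3 KO libraries of 6 weeks.

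Markers of other cell types were summed beside Pparg. The 8 endothelial markers, one of which is Fabp4, had none at 0 in any group. They summed to 767 to 943 CPM in KO against 1142 to 1193 CPM in WT at 6 weeks, and 2 of 8 were called lower (median log2 fold change -0.18). In KO they summed to 973 to 1292 CPM at 3 weeks and 949 to 1100 CPM at 10 weeks, and in WT to 1226 to 1419 CPM and 1182 to 1497 CPM. None of the 8 was called at 3 weeks (median log2 fold change -0.22). At 10 weeks 2 of 8 were called lower (median -0.36), an age at which the Pparg values of KO and WT overlapped. Fabp4, a lipid-binding protein gene of endothelium and fat and a known PPARγ target, ranged from 222 to 260 CPM in KO and from 366 to 470 CPM in WT at 6 weeks. It was one of the 2 called lower, and Cldn5, a tight junction gene of endothelium, was the other. Without Fabp4 the other 7 markers summed to 545 to 683 CPM in KO and 673 to 794 CPM in WT at 6 weeks, which overlapped. The 8 macrophage markers, also none at 0, summed to 225 to 271 CPM in KO and 276 to 347 CPM in WT at 6 weeks, with 1 of 8 called higher and 1 lower. At 3 weeks they summed to 270.3 to 289 CPM in KO and 296 to 350.1 CPM in WT, with 1 of 8 called lower, and at 10 weeks to 172 to 209 CPM in KO and 224 to 263 CPM in WT, with 3 of 8 called lower. At these 2 ages the Pparg values of KO and WT overlapped. Adipocyte markers other than Lpl, which the heart muscle also makes, summed over 7 genes to between 2.55 and 18.5 CPM in 16 libraries. They reached 123 CPM in KO library 3 of 6 weeks and 144 CPM in KO library 1 of 10 weeks, where Pparg was 6.09 and 10.5 CPM. Adipoq was at most 0.89 CPM in WT, and of the 6 adipocyte markers tested none was called higher at 6 weeks and 1 lower, Lpl itself (-0.55, adjusted p = 0.0097). The part of these cell types in the Pparg values was not tested.

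**Figure D3:**
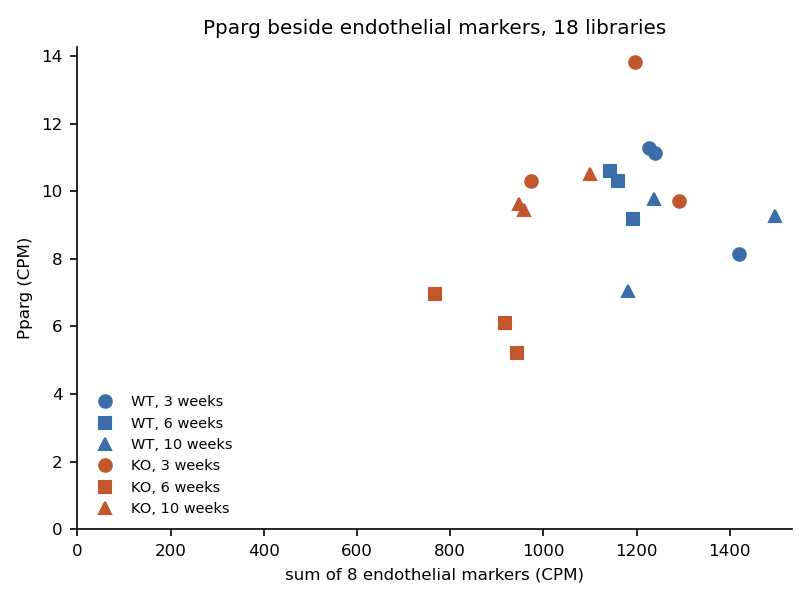
Pparg in CPM (y axis) against the summed CPM of 8 endothelial markers, Fabp4 among them (x axis), both from 0, in the 18 libraries. Blue is WT and orange KO; circles, squares and triangles are 3, 6 and 10 weeks. The 3 KO libraries of 6 weeks lie lowest on both axes, at 5.22 to 6.97 CPM of Pparg and 767 to 943 CPM of the markers. The sum without Fabp4 overlapped between KO and WT at 6 weeks.

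Esrra encodes ERRα, the most abundant ERR of the heart and a main partner of the PGC-1 coactivators (minus strand, chr19:6910977-6921813). In WT it stood at 182, 185 and 206 CPM at 3 weeks, 216, 227 and 247 CPM at 6 weeks and 255, 294 and 321 CPM at 10 weeks. In KO it stood at 218, 156 and 153 CPM at 3 weeks, 178, 176 and 177 CPM at 6 weeks and 174, 198 and 219 CPM at 10 weeks. KO and WT overlapped at 3 weeks through KO library 1, and were separate, with KO lower, at 6 and 10 weeks. At 3 weeks the log2 fold change was -0.12 (SE 0.13, adjusted p = 0.57). It was -0.38 (SE 0.13, adjusted p = 0.032) at 6 weeks, and -0.56 (SE 0.13) with an adjusted p of 0.0019 at 10 weeks.

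The 10-week call for Esrra held in 6 of 6 fits without 1 library, from -0.64 to -0.44. The 6-week call held in 1 of 6, without WT library 1. Without WT library 2 or 3 the adjusted p was 0.062 and 0.14, and without KO library 1, 2 or 3 it was 0.086, 0.087 and 0.079. It was 0.058 without the libraries high in Myl4. None of the changes of the genotype effect between ages was called for Esrra: between 10 and 3 weeks it was -0.44 (SE 0.18, adjusted p = 0.16). Within WT, the log2 change was 0.27 from 3 to 6 weeks (SE 0.13, adjusted p = 0.22) and 0.33 from 6 to 10 weeks (SE 0.13, adjusted p = 0.11), the second with an adjusted p of 0.033 with only the groups compared. Esrra shares 177 exon bases with Trmt112 on the opposite strand, and the sources used here do not say whether counting used strand. Trmt112 held 8576 counts over the 18 libraries, while Esrra held at least 2478 in each.

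Esrrg encodes ERRγ, an ERR of highly oxidative tissues (plus strand, chr1:187608791-188214885), and was the one member called higher in KO at 10 weeks. There it stood at 37.5, 35.7 and 34.5 CPM in WT and 43.6, 56.6 and 41.6 CPM in KO, a log2 fold change of 0.40 (SE 0.14, adjusted p = 0.036). The values were separate, but the call passed in 2 of 6 fits, without KO library 1 or 3. Without WT library 1, 2 or 3 the adjusted p was 0.059, 0.086 and 0.096. Without KO library 2, the highest, it was 0.21 and the log2 fold change was 0.26. At 3 weeks WT stood at 32.6, 37.8 and 29.5 CPM and KO at 26.1, 31.9 and 35.7 CPM, and at 6 weeks WT stood at 29.5, 31.8 and 33.4 CPM and KO at 42.5, 36.7 and 31.7 CPM. At both ages they overlapped.

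Esrrb encodes ERRβ, known from embryonic stem cells and placenta (plus strand, chr12:86361117-86521628). It was called in no comparison of KO with WT. In WT it stood at 20.0, 24.1 and 30.3 CPM at 3 weeks and 39.9, 41.4 and 43.3 CPM at 6 weeks, a log2 change of 0.75 (SE 0.18, adjusted p = 0.023). It was the single member called between these ages in WT, where 5.18% of all genes were. The ages were separate, but the call passed in 1 of 6 fits, without library 3 of 3 weeks. It was lost without library 1 or 2 of 3 weeks (adjusted p = 0.12 each) and without library 1, 2 or 3 of 6 weeks (0.083, 0.053 and 0.099). In KO, Esrrb stood at 45.6, 25.6 and 30.2 CPM at 3 weeks, 38.9, 37.8 and 37.3 CPM at 6 weeks and 35.8, 51.1 and 54.7 CPM at 10 weeks. At 10 weeks, beside 37.1, 39.3 and 33.5 CPM in WT, the log2 fold change was 0.37 (SE 0.18, adjusted p = 0.14). It was 0.57 (adjusted p = 0.022) without KO library 1, and 0.55 (0.032) without the libraries high in Myl4. At 3 weeks it was 0.45 (SE 0.18, adjusted p = 0.11), with adjusted p of 0.040 without WT library 3 and 0.033 without KO library 2. Without KO library 1 it was 0.18 (adjusted p = 0.55).

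Nrf1 encodes nuclear respiratory factor 1 (plus strand, chr6:30047988-30153458) and was called in none of the 10 comparisons. Over the 9 WT libraries it lay between 11.7 and 18.1 CPM and over the 9 KO libraries between 11.8 and 18.1 CPM. At 10 weeks WT stood at 17.5, 18.1 and 17.3 CPM and KO at 11.8, 17.6 and 12.8 CPM, a log2 fold change of -0.33 (SE 0.15, adjusted p = 0.11). KO library 2, at 17.6 CPM, made the groups overlap, and without it the value was -0.50 (adjusted p = 0.022). Without KO library 1 it was -0.18 (adjusted p = 0.46).

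Tfam encodes the factor that packages mitochondrial DNA and starts its transcription (minus strand, chr10:71225464-71238280). It stood at 40.3, 41.6 and 40.0 CPM in WT and 28.2, 30.5 and 34.7 CPM in KO at 3 weeks, and at 43.3, 35.9 and 41.2 CPM in WT and 30.01, 24.2 and 29.5 CPM in KO at 6 weeks. KO was below WT without overlap at both ages. The 3-week log2 fold change was -0.38 (SE 0.12, adjusted p = 0.031). The 6-week value was -0.52 (SE 0.12, adjusted p = 0.0024). At 10 weeks WT (36.2, 33.9 and 40.6 CPM) and KO (35.3, 29.01 and 30.1 CPM) overlapped, and the value was -0.23 (SE 0.12, adjusted p = 0.16). The 6-week call held in 6 of 6 fits without 1 library. The 3-week call held in 2 of 6, without WT library 3 or KO library 3. Without WT library 1 or 2 the adjusted p was 0.082 and 0.088, and without KO library 1 or 2 it was 0.12 and 0.086. With no filter on low counts it was 0.063, and with only the 3-week groups 0.057. No change of the Tfam genotype effect between ages was called.

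Beside Tfam, mitochondrially encoded genes took 10.997% to 16.8% of the counts in the 9 WT libraries and 7.50% to 10.9% in the 9 KO libraries, which were separate. At 3 weeks the share was 12.6% to 16.8% in WT and 7.62% to 10.9% in KO. At 6 weeks it was 10.997% to 13.2% and 8.68% to 10.1%, and at 10 weeks 13.1% to 14.7% and 7.50% to 9.74%. Scaling the libraries without the mitochondrially encoded genes moved no member across the threshold in any comparison of KO with WT. The part of the mitochondrial share in the Tfam values was not tested.

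Per kilobase of exon, Esrra stood far above the others, with a median of 89.6 CPM per kb over the 9 WT libraries (71.6 to 127). Then followed Ppara at 9.95 (6.71 to 11.2), Ppargc1a at 9.77 (8.48 to 12.2), Tfam at 9.08 (7.63 to 9.75), Ppard at 8.71 (7.06 to 13.7) and Ppargc1b at 7.32 CPM per kb (4.72 to 10.02). The ranges of these 5 overlapped, so their order is not resolved. Esrrb at 6.13 (3.31 to 7.17), Esrrg at 5.38 (4.75 to 6.09) and Pparg at 3.31 CPM per kb (2.39 to 3.82) came next, and Nrf1 was lowest at 1.54 (1.14 to 1.77), below the range of every other member. Nrf1 has the most annotated exon of any member, 10282 bases, against 2953 for Pparg. Its place depends on that length, and the length of the transcripts expressed was not measured. The Esrrb range met those of Ppara, Ppard and Ppargc1b. The Esrrg range lay within those of Ppargc1b and Esrrb, so the order among these genes is not resolved either. The Pparg range met that of Esrrb and lay below that of Esrrg. In KO the same measure reached 34.3 CPM per kb for Ppargc1a, above the 9 WT libraries, and ran from 60.1 to 86.2 for Esrra.

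Promoters from RefSeq (GRCm38.p6), the 250 bases before and 50 after each annotated start, were held for 9 of the 10 members in 16 windows; Ppargc1b was the member without one. The windows were searched on both strands for 5 motifs. The ERR element TCAAGGTCA was in 0 of the 16 windows and in 0.423% of the 32851 windows of all genes. The PPAR-type direct repeat 1, AGGTCA repeated with 1 base between, was in 0 of 16 and 0.0396% of all. The cyclic AMP response element TGACGTCA was in 0 of 16 and 1.79% of all. The NRF1 core GCGCATGCG was in 1 member window, that of Ppara, and in 1.75% of all windows. The ETS site CCGGAAGT, bound by GABP (also called NRF2), was in 1 member window, that of Tfam, and in 3.89% of all.

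The matches are shown for the factor that starts mitochondrial transcription and for the receptor of fatty acid oxidation, with 30 bases each, 5′ to 3′ on the gene's strand and matched letters in capitals. The Tfam site lies at bases -47 to -40 from the RefSeq start, at chr10:71238073-71238102, minus strand, within an untranslated exon of GENCODE M21. The Ppara site lies at -31 to -22, at chr15:85735735-85735764, plus strand, inside the gene but in no exon of M21, and its capitals hold overlapping matches on both strands. These are matches of letters only.
Tfam: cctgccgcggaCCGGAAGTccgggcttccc
Ppara: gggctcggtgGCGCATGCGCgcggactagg

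The 4 lists of further genes of the network were counted in each comparison of KO with WT, and no gene stands in more than 1 list. Of all genes tested, 8.65%, 11.0% and 14.6% were called higher and 6.68%, 12.8% and 14.7% lower at 3, 6 and 10 weeks, and each list is read against these shares. Of the 32 partners and modifiers of PGC-1 and nuclear receptors, 7 were called higher and 2 lower at 3 weeks, 10 and 3 at 6 weeks, and 3 and 6 at 10 weeks. The 2 and 3 called lower at 3 and 6 weeks and the 3 called higher at 10 weeks were at or below the share of all genes. Their median log2 fold change was 0.13, 0.10 and -0.01. Lpin1, a phosphatidate phosphatase that also acts with PGC-1α and PPARα, rose from 150 ± 18.6 to 276 ± 67.4 CPM at 3 weeks (SD, n = 3; log2 fold change 0.88, SE 0.14, edgeR adjusted p = 0.00023). Rxrg, the retinoid X receptor γ that can pair with PPARs, was lower by -1.001 at 6 weeks (adjusted p = 0.00019) and -1.33 at 10 weeks (adjusted p = 8.2e-06), where it stood at 97.7 ± 8.31 CPM in WT and 38.9 ± 13.5 CPM in KO. Sirt3, the main mitochondrial deacetylase, was lower by -0.39 (adjusted p = 0.045), -0.78 (0.00011) and -0.65 (0.00062) at 3, 6 and 10 weeks. The first of these held in 1 of 6 fits without 1 library. It was lost without WT library 1, 2 or 3 (0.063, 0.10 and 0.13), KO library 2 or 3 (0.18 and 0.16), with no filter on low counts (0.053), with only the 3-week groups (0.086) and without the libraries high in Myl4 (0.14).

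Among the other partners, Mef2c, a muscle transcription factor, was higher at 6 weeks (0.81, SE 0.11, adjusted p = 2.2e-05). Kat2b, an acetyltransferase, and Klf15, a regulator of lipid genes in heart, were higher at 10 weeks (0.71 and 0.84, adjusted p = 7.2e-05 and 7.4e-05). Klf15 was instead called lower at 6 weeks (-0.38, adjusted p = 0.044) and was not called at 3 weeks (0.36, adjusted p = 0.071). Thrb, a thyroid hormone receptor, was lower at 3 weeks (-0.51, adjusted p = 0.037), in 2 of 6 fits without 1 library. That call was lost without WT library 1 or 2 (0.10 and 0.18), KO library 1 or 3 (0.082 and 0.13), with only the 3-week groups (0.058) and without the libraries high in Myl4 (0.099). The number called in this list at 3 weeks, 9, was 3 without WT library 1 and 5 without WT library 2 or KO library 3, and also 5 with only the 3-week groups in the fit. The 13 called at 6 weeks were 6 without WT library 1. Without the libraries high in Myl4, 6 were called at 3 weeks.

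Of the 23 genes of mitochondrial DNA transcription and replication other than Tfam, none was called higher at any age and 5, 5 and 6 were called lower at 3, 6 and 10 weeks, where 6.68%, 12.8% and 14.7% of all genes were. The median log2 fold change was -0.34, -0.24 and -0.28. Mgme1, an exonuclease of mitochondrial DNA replication, was lower by -0.54 (SE 0.14, adjusted p = 0.0089), -0.69 (0.13, 0.00063) and -0.94 (0.14, 2e-05) in turn. Dguok, which salvages deoxyguanosine for mitochondrial DNA, stood at 28.4 ± 1.22 CPM in WT and 11.7 ± 0.814 CPM in KO at 10 weeks (log2 fold change -1.28, adjusted p = 8.3e-08). It was lower by -0.52 at 3 weeks (adjusted p = 0.005). Lrpprc, which stabilises mitochondrial messenger RNAs, fell from 177 ± 7.94 to 112 ± 7.13 CPM at 6 weeks (-0.66, adjusted p = 2.4e-05). The count at 3 weeks was 3 without WT library 1, WT library 2 or KO library 1, and 2 without KO library 2 or with only the 3-week groups.

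Of 32 known PPAR target genes, 11, 19 and 22 were called lower and 2, 1 and 1 higher at 3, 6 and 10 weeks, with medians of -0.34, -0.58 and -0.77. At each age the number called higher was below the share of all genes. Acadm, the medium-chain acyl-CoA dehydrogenase of fatty acid oxidation, ran from 1150 to 1236, 1477 to 1687 and 1487 to 1687 CPM in WT and from 661 to 910, 690 to 759 and 835 to 876 CPM in KO. Its log2 fold changes were -0.60 (adjusted p = 0.00051), -1.10 (1.8e-07) and -0.89 (2e-06). The long-chain enzyme Acadl was lower by -0.47 at 3 weeks (adjusted p = 0.0012) and the isomerase Eci1 by -1.14 at 6 weeks (adjusted p = 3.7e-07). Acot1, a cytosolic acyl-CoA thioesterase, stood at 40.0 ± 10.3 CPM in WT and 3.64 ± 1.60 CPM in KO at 10 weeks (-3.47, SE 0.35, adjusted p = 1.8e-06). It has near-identical paralogues, and the sources used here do not say how reads that fit several genes were counted.

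Among PPAR targets, Pdk4, the kinase that shuts off pyruvate dehydrogenase, was higher at 3 weeks, with 273 ± 71.6 CPM in WT and 726 ± 337 CPM in KO (1.41, SE 0.43, adjusted p = 0.043). It passed in 1 of 6 fits, without KO library 1. It was lost without WT library 1, 2 or 3 (0.17, 0.067 and 0.088), KO library 2 or 3 (0.084 and 0.15), with limma voom (0.052), with only the 3-week groups (0.065) and with the replicate number as a block (0.070). The 13 PPAR targets called at 3 weeks were 8 without WT library 2 or with only the 3-week groups, and 5 without KO library 2. Cidec, chosen here after its values were seen because it lies highest in the plot of the lists, had log2 fold changes of 2.53 at 6 and 4.46 at 10 weeks (adjusted p = 0.35 and 0.11). It is also one of the adipocyte markers, and within KO it ranged from 0.06 to 9.36 CPM at 6 weeks and from 0 to 18.5 CPM at 10 weeks.

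Of 30 known ERR target genes, none was called higher at any age; 9 were called lower at 3 weeks, 27 at 6 weeks and 16 at 10 weeks. The median log2 fold change was -0.25, -0.72 and -0.32, lowest at 6 weeks. Etfdh, which passes electrons from fatty acid oxidation to the respiratory chain, stood at 466 ± 26.0, 581 ± 48.0 and 632 ± 34.6 CPM in WT and 319 ± 34.8, 295 ± 11.8 and 395 ± 21.6 CPM in KO. Its log2 fold changes were -0.55 (adjusted p = 0.00063), -0.98 (3e-07) and -0.68 (2.2e-05). Sdhc, a subunit of succinate dehydrogenase, was lower by -0.64 at 3 weeks (adjusted p = 6.5e-05) and -0.89 at 6 weeks (4.8e-07), and Sucla2, of succinyl-CoA ligase, by -0.93 at 10 weeks (5.5e-06). The 9 called at 3 weeks were 4 without WT library 1 and 5 without KO library 1, and the 16 at 10 weeks were 10 without WT library 3. Without the libraries high in Myl4, 6 were called at 3 weeks and 12 at 10 weeks. At 6 weeks, 6 of 8 fibroblast markers were called higher, and none was at 0. They summed to 2528 to 2949 CPM in KO and 1841 to 2014 CPM in WT. At 3 weeks 2 of the 8 were called higher and 2 lower, with sums of 2033 to 2329 CPM in KO and 1867 to 2226 CPM in WT. At 10 weeks 3 were called higher and none lower, with sums of 2094 to 2376 CPM in KO and 1714 to 1932 CPM in WT. The part of these markers in the list values was not tested.

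**Figure D4:**
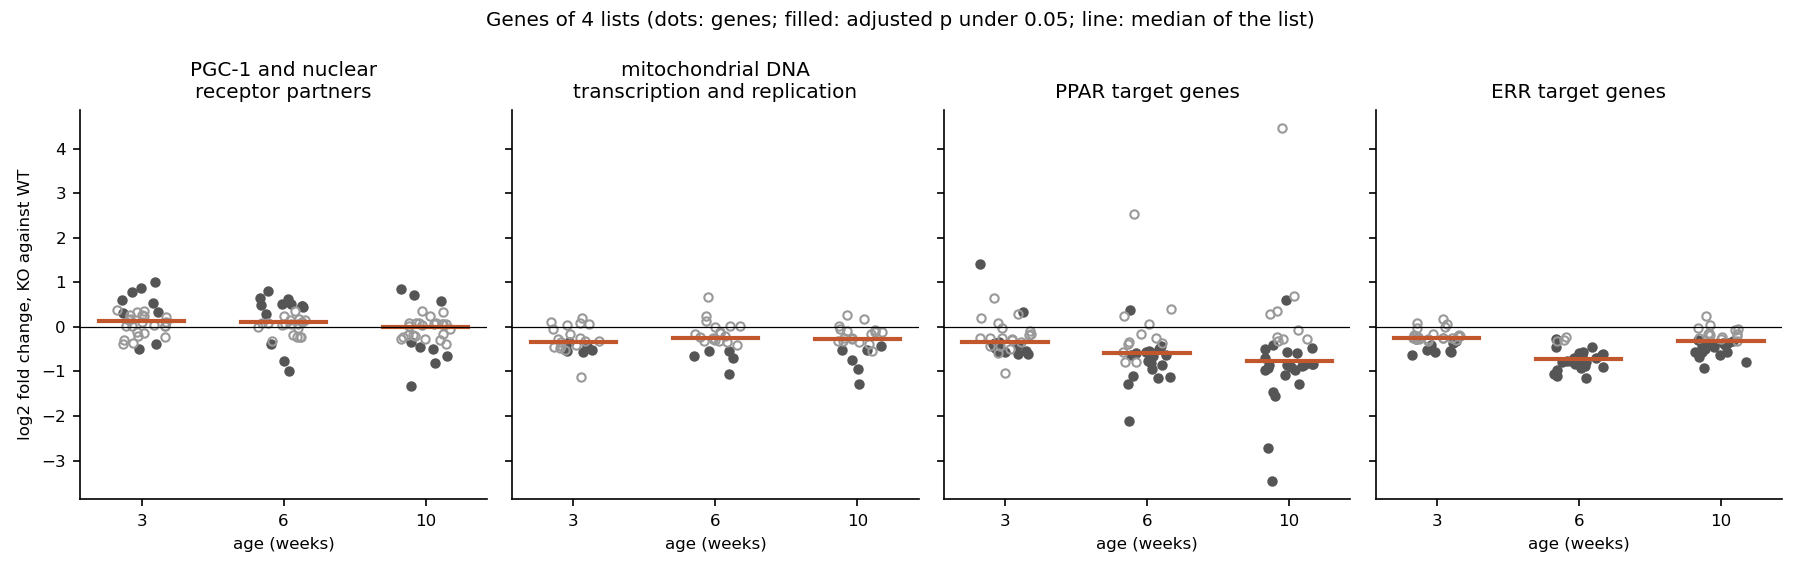
Log2 fold change, KO against WT (y axis), of the genes of 4 lists at 3, 6 and 10 weeks (x axis). Dots are genes, filled where the adjusted p was under 0.05, and the orange line is the median of the list. ERR targets lie lowest at 6 weeks (median -0.72) and PPAR targets at 10 weeks (median -0.77), while the partners stay around 0 (medians 0.13, 0.10 and -0.01).

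For each of the 8 members called in a comparison of KO with WT, the 3 genes of the 15778 with the most similar course over the 18 libraries were found by the root mean square difference of log2 CPM, each gene centred on its mean. Nearest to Ppargc1a came Rhoj (0.38), Zfp871 (0.39) and Sema6b (0.39), while Ppargc1a itself varied by 0.63 around its mean. Rhoj averaged 56.9 CPM in KO at 3 weeks and 22.7 CPM in KO at 6 weeks. Esrra was followed more closely, by Rhot2, Slc4a3 and Endog (0.11, 0.11 and 0.12, against its own 0.29). Tfam was followed by Atp5f1, Aifm1 and Pdha1 (0.10, 0.11 and 0.11, against 0.23). Atp5f1 averaged 883, 918 and 801 CPM in WT and 692, 605 and 701 CPM in KO at 3, 6 and 10 weeks.

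For Ppargc1b the nearest were 2310022B05Rik, Gatad2a and Tmem184b (0.15, 0.15 and 0.16, against 0.32). For Ppara they were Asb2, Tctn3 and Adcy6 (0.17, 0.19 and 0.19, against 0.36), and for Ppard Map7d1, Ctdnep1 and Rnf31 (0.12, 0.13 and 0.14, against 0.26). For Pparg they were Itpripl1, Hecw2 and Trpv4 (0.17, 0.20 and 0.20, against 0.33). For Esrrg they were Kpna4, Ccser2 and St13 (0.12, 0.12 and 0.13, against 0.25). Likeness over the same libraries includes what those libraries share, such as depth and composition.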

How the data were processed

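The authors deposited 1 table of raw, unnormalized counts per gene for each library. The submitters' processing notes list the build GRCm38 and, among tools, STAR 2.5.2b, Trimmomatic 0.36, and Subread 1.5.2 with featureCounts. Strand setting, annotation release and treatment of multimapping reads are not given in the sources used here. Symbols came from GENCODE M21 for 49056 of the 49315 identifiers, and 259 had no match.

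Counts were analysed with R 4.3.3, edgeR 4.0.16 and limma 3.58.1, and tables and figures with Python 3.11.15, pandas 2.3.3 and matplotlib 3.10.9. Genes were kept by filterByExpr (minimum count 10, minimum total 15), TMM scaling was applied, and a robust quasi-likelihood model with a term per group was fitted to all 18 libraries (common dispersion 0.0252), with no replicate block. The SE of a fold change is its size divided by the square root of F. Profiles were compared as log2 CPM with a prior count of 2. The 10 comparisons were KO against WT at each age, the difference of that effect between ages, and the changes from 3 to 6 and 6 to 10 weeks within a genotype. The comparison of KO with WT at 3 weeks was run on simulated counts with edgeR, DESeq2 and limma voom. The other comparisons, the fits without 1 library, the motif search and the likeness of profiles were not tested in that way. Alternatives were DESeq2 size factors, scaling without mitochondrially encoded genes, no filter on low counts, DESeq2 1.42.0, limma voom, only the groups compared, the replicate block, leaving out the 3 libraries with Myl4 above 50 CPM, and leaving out each library in turn.

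Named genes were the 10 members, Csrp3, up to 2 called genes per direction with the smallest p in each list and comparison of KO with WT, and the 3 genes most like each member called in a comparison of KO with WT. Some genes that this rule names are not reported here. Markers of other cell types are given only beside a result. The members and lists were chosen with earlier results of these data known, so no count of members or of list genes is independent support.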

Additional observations from a re-analysis of the deposited data

Results flagged for a closer look

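Differences of the KO against WT effect between ages, tested as an interaction in edgeR's quasi-likelihood model, picked out 4 members. Called were 1 of 10 members at 6 against 3 weeks, where 1.59% of all genes were, and 1 at 10 against 6 weeks (5.75%). At 10 against 3 weeks 3 were called (5.76%). For Ppargc1a the effect was lower at 6 than at 3 weeks by -1.93 (adjusted p = 0.0012) and at 10 than at 3 weeks by -1.62 (0.001). For Ppargc1b it was lower at 10 than at 3 weeks by -1.06 (0.0049), and for Ppard by -0.87 (0.027). For Pparg it was higher at 10 than at 6 weeks by 0.90 (0.040). The 3 differences against 3 weeks for Ppargc1a and Ppargc1b passed in 12 of 12 fits without 1 library, the one for Ppard in 6 of 12 and the one for Pparg in 3 of 12. The Pparg difference was also lost without the libraries high in Myl4 (adjusted p = 0.070).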

How the results depend on the processing

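Counted here are 49 of the 100 values that 10 members give in 10 comparisons: the 30 of KO against WT, and the others with an adjusted p under 0.1 or given in the text. Leaving out 1 library gave 342 fold changes: 274 kept their direction and their side of the threshold, 53 lost a call, 8 gained one and 7 changed sign. The other alternatives gave 392, of which 369 kept both, 10 lost a call, 11 gained one and 2 changed sign. The cause of each change was not tested.

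The number of members called ran, without 1 library, from 2 to 5 at 3 weeks, 2 to 3 at 6 weeks and 1 to 4 at 10 weeks. It ran from 0 to 1 for the genotype effect at 10 against 6 weeks and for WT from 3 to 6 and from 6 to 10 weeks, and from 0 to 3 for KO from 6 to 10 weeks. Genes called at 3 weeks ran from 1309 (without WT library 1) to 2542, with 1593 without WT library 2. Partners called ran from 3 to 8 at 3 weeks and 6 to 11 at 6 weeks, genes of mitochondrial DNA from 2 to 6 at 3 weeks, PPAR targets from 5 to 15 at 3 weeks, and ERR targets from 4 to 9 at 3 weeks and 10 to 17 at 10 weeks.

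With only the groups compared, 3 members were called at 3 weeks and 3 in WT from 6 to 10 weeks, and at 3 weeks 5 partners, 2 genes of mitochondrial DNA and 8 PPAR targets. With no filter on low counts, 4 members were called at 10 weeks and 3 in the genotype effect at 6 against 3 weeks, where DESeq2 called 2. Without the libraries high in Myl4, 2 members were called at 6 weeks and 0 both in the genotype effect at 10 against 6 weeks and in KO from 6 to 10 weeks. Among the 49 values, signs changed for 5 that were not called: Pparg at 3 weeks was -0.0315 without the libraries high in Myl4 and ran from -0.0222 to 0.25 without 1 library, Esrrg at 3 weeks ran from -0.20 to 0.0218, Ppara at 6 weeks was 0.00103 without the libraries high in Myl4, and Ppargc1a in WT ran without 1 library from -0.14 to 0.13 between 3 and 6 weeks and from -0.064 to 0.095 between 6 and 10 weeks.

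The labels do not say whether replicate numbers pair libraries. Deviations of same-numbered KO and WT libraries had correlations across genes from -0.084 to 0.085, and 3 of 9 correlated best with their own number. With 3 libraries a group, this cannot show whether the numbers mark a shared litter or batch. With the replicate block, 4 members were called at 3 weeks, 4 at 6 weeks and 3 at 10 weeks; Ppara at 3 weeks had an adjusted p of 0.061 and Ppargc1b at 10 weeks 0.021. With 3 libraries a group, the smaller differences were not resolved from the spread.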
